A study of Mus musculus with 2 samples.

Results

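The 9 genes described here encode enzymes that make haem (Alas1, Alas2, Alad, Uros, Urod, Cpox, Ppox and Fech) and the inducible enzyme that breaks it down (Hmox1). They were taken by symbol from a table of 55487 mouse genes, and all 9 were found, each under 1 Ensembl gene ID. All 9 passed the expression filter of at least 1 scaled CPM in a library, as did 13183 genes in all. Scaled CPM are counts divided by library size (CPM), with a correction for library composition (TMM). RNA had been sequenced from 2 cultures of C57BL/6 mouse bone marrow cells depleted of lineage-marked cells. One carried a retroviral vector (pMYs-IG) for wild-type EVI1 with an HA tag (3xHA-EVI1-WT), and the other the same vector for the spliced form 3xHA-EVI1+18. EVI1 is a zinc finger transcription factor whose overexpression marks an aggressive class of leukaemia. Both cultures were sorted for the vector's green fluorescence 3 days after infection, plated at 10000 cells and grown for about 3 weeks in MethoCult M3434, a semi-solid medium in which blood colonies form. No culture lacking a vector for EVI1 was used here, so every value compares the 2 forms of EVI1 with each other.

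Each form was represented by 1 library. No test across replicates was possible, and the intervals given are 95% exact intervals that cover counting error only. The libraries held 20480447 counts (EVI1-WT) and 20981903 counts (EVI1+18). A gene was called higher or lower when the whole interval of its ratio lay past 2-fold. That rule called 5.05% of the 13183 genes higher in EVI1+18 and 5.10% lower, and the median log2 ratio of all of them was 0.01. In RNA from whole cultures, more cells of a type and more RNA per cell cannot be told apart.

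Haem is an iron-holding porphyrin ring that carries oxygen in haemoglobin and electrons in cytochromes and peroxidases. Its synthesis starts in the mitochondrion, where ALA synthase joins glycine to succinyl-CoA. It passes through the cytosol, and ends in the mitochondrion, where ferrochelatase inserts iron. ALA synthase has a form found in most tissues, ALAS1, whose synthesis haem restrains, and a red-cell form, ALAS2, which is encoded on the X chromosome and is strongly induced when red cells mature. Red-cell precursors raise the whole pathway to supply globin, and macrophages use haem oxygenase to recover the iron of old red cells.

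The bases upstream of Alas2, Alad and Cpox are shown because the red-cell synthase stayed near the detection limit while Alad and Cpox had the highest ratios of the 9 genes. Upstream windows of 250 bases were read for 7 of the 9 genes, without Hmox1 and Fech. The sequences shown are RefSeq's for GRCm38.p6. Each is given on the gene's strand, 5′ to 3′, without bases of annotated exons. Capitals mark matches to a GATA word (AGATAA or AGATAG or TGATAA or TGATAG, on either strand) or to CCNCNCCC, the core bound by Krüppel-like factors such as KLF1, on either strand, where matches may overlap.

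Alas2 (chrX:150547167-150547374, plus strand): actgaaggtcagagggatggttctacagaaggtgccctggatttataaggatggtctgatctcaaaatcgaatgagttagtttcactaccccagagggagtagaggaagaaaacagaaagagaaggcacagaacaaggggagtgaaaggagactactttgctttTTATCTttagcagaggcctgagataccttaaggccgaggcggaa

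Alad (chr4:62520064-62520313, minus strand): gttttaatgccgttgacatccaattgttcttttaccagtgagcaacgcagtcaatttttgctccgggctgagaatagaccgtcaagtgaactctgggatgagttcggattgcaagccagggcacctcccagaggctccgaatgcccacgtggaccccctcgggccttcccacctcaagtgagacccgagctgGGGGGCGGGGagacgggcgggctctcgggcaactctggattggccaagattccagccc

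Cpox (chr16:58669958-58670207, plus strand): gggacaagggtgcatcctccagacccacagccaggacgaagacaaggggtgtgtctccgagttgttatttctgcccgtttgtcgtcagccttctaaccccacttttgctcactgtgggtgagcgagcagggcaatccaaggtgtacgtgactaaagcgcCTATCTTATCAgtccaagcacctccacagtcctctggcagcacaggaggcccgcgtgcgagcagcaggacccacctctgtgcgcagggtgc

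The Cpox stretch held 2 GATA words that overlap each other, beginning 91 and 86 bases before the RefSeq start. Alas2 held 1, beginning 86 bases before its start, and Alad held none in either of its windows. The Alad stretch held 2 overlapping matches to CCNCNCCC, 58 and 56 bases before the start, and the second Alad window held 4, these among them. A further 4 matches to that core near Alas2 lay in bases that GENCODE assigns to its first exon and are not printed. Over 32851 upstream windows of 250 bases from the same source, 26.5% held a GATA word and 45.9% held CCNCNCCC, so both are common. A match describes the letters and not a bound site. Among the genes not shown, Uros held 2 GATA words in 1 window and CCNCNCCC in another. Both Alas1 windows held CCNCNCCC and no GATA word, and the windows of Ppox and Urod held neither. The core of the antioxidant response element (TGACNNNGC), held by 10.2% of windows, was in none of the 10 windows read. Hmox1 and Fech had no window among these 10, so neither was searched for it.

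Of the 9 haem genes, 3 were called higher in EVI1+18 (Alad, Cpox and Fech), 1 was called lower (Hmox1) and 5 were neither. The 6 of them that act after ALA synthase all had ratios above 1, from 1.34 for Ppox to 6.09 for Alad, and all 6 intervals excluded 1. The ubiquitous synthase Alas1 and the oxygenase Hmox1 were lower, and the red-cell synthase Alas2 had 9 and 27 counts. By the looser measure of an interval that excludes 1, 7 of the 9 genes were higher, where 33.4% of all tested genes were, and 2 were lower, where 32.8% were. Alas2, counted among the 7, passed the filter only through EVI1+18, the library where it was higher. The median log2 ratio was 0.97 over the 9 genes and 0.84 over the 8 that passed in both libraries.

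**Figure D1:**
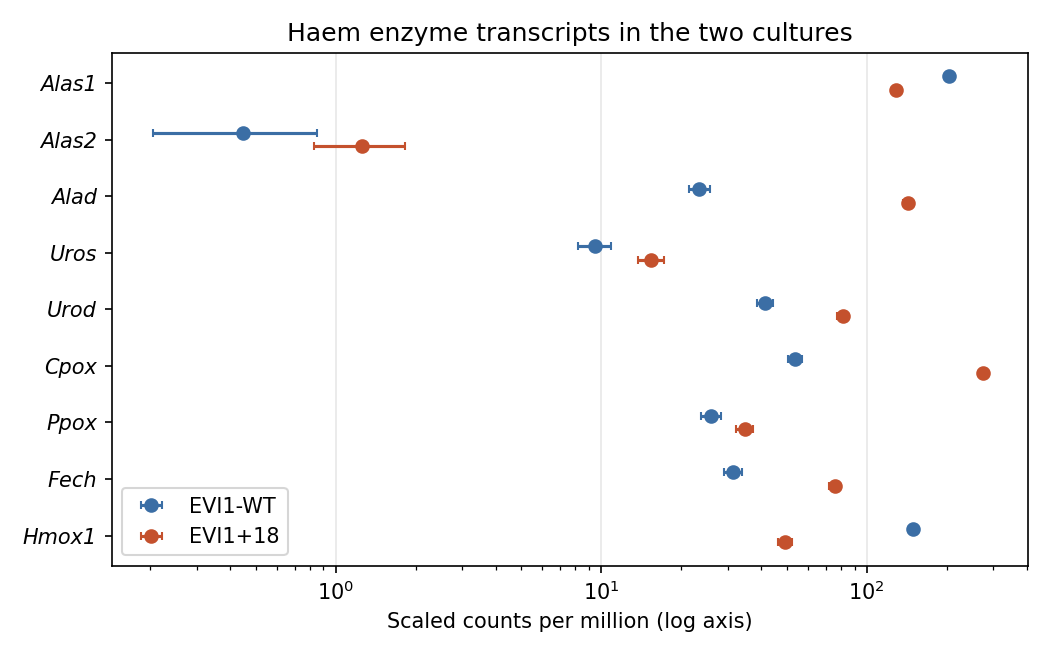
Level of each haem gene in scaled CPM on a log axis, with the EVI1-WT culture in blue and the EVI1+18 culture in orange. Bars are 95% exact Poisson intervals and cover counting error only. The EVI1+18 point lies to the right for Alad through Fech and for Alas2, and to the left for Alas1 and Hmox1.

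The entry enzymes went different ways. Alas1 (ENSMUSG00000032786; GRCm38 chromosome 9, 106233455 to 106248654, minus strand) drew 4100 counts with EVI1-WT against 2777 with EVI1+18, or 205 and 129 scaled CPM. It was 1.58-fold lower in EVI1+18, with an interval of 1.51 to 1.66, which lies short of the 2-fold rule. Of all tested genes, 13.3% had an equal or lower log2 ratio.

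Alas2 (ENSMUSG00000025270; chromosome X, 150547375 to 150570638, plus strand) drew only 9 counts with EVI1-WT and 27 with EVI1+18, or 0.449 and 1.26 scaled CPM. Its ratio was 2.80, with an interval of 1.28 to 6.77, so the direction was resolved by counting but the 2-fold rule was not met. With 3 counts taken as the upper bound, a count of 0 would have allowed a level of up to 0.150 (EVI1-WT) or 0.140 (EVI1+18). Both levels stood above that bound, which is not an end of the exact intervals used elsewhere. These few counts may be too high or too low, because 311 exon bases of Alas2 (12.9% of its exon length) overlap Apex2 on the opposite strand. Apex2 had 233 and 187 counts, and whether strand was used in counting is not given in the sources used here.

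Per kilobase of annotated exon, Alas1 stood 177-fold above Alas2 in EVI1-WT (93.3 to 388) and 40.03-fold above it in EVI1+18 (27.5 to 60.9). Alas2 thus made up 0.561% of the combined ALA synthase level in EVI1-WT (0.257 to 1.06) and 2.44% in EVI1+18 (1.62 to 3.51). With the longest annotated transcript as the length, the shares were 0.365% and 1.596%. In both cultures, nearly all ALA synthase RNA came from the ubiquitous gene. Both genes summed to 205 scaled CPM with EVI1-WT and 131 with EVI1+18, a ratio of 0.637 (0.607 to 0.668).

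Of the 3 cytosolic enzymes among the 9, porphobilinogen synthase had the widest difference. Alad (ENSMUSG00000028393; chromosome 4, 62509169 to 62519918, minus strand), which joins 5-aminolaevulinate molecules into porphobilinogen, had 469 and 3059 counts, or 23.4 and 143 scaled CPM. It was 6.09-fold higher in EVI1+18 (5.52 to 6.72) and ranked 308 of 13183 genes by log2 ratio. No other annotated exon overlaps it and none of its 50-base words occur in another gene. Its ratio was the highest of the 9.

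Uros (ENSMUSG00000030979; chromosome 7, 133686243 to 133710072, minus strand), which closes the porphyrin ring, had 190 and 331 counts, or 9.49 and 15.4 scaled CPM. It was 1.63-fold higher (1.36 to 1.95). Urod (ENSMUSG00000028684; chromosome 4, 116989965 to 116994413, minus strand), which trims the side chains of the ring, had 827 and 1743 counts, or 41.3 and 81.2 scaled CPM. It was 1.97-fold higher (1.81 to 2.14), so its interval crossed 2 and it was not called. The interval of Alad lay above those of both.

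Of the mitochondrial enzymes that finish the ring, Cpox differed most. Cpox (ENSMUSG00000022742; chromosome 16, 58670292 to 58717636, plus strand), which oxidises coproporphyrinogen, had 1075 and 5878 counts, or 53.7 and 274 scaled CPM. It was 5.10-fold higher (4.78 to 5.45) and ranked 350 of all tested genes. Its GATA words are marked in the sequence above.

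Ppox (ENSMUSG00000062729; chromosome 1, 171275990 to 171281186, minus strand), the next oxidase, had 518 and 745 counts, or 25.9 and 34.7 scaled CPM. It was 1.34-fold higher (1.20 to 1.505), the lowest ratio among the 6 listed enzymes after ALA synthase. Of its exon length, 17.5% overlaps B4galt3 on the opposite strand, which had 420 and 321 counts. Ferrochelatase, Fech (ENSMUSG00000024588; chromosome 18, 64452914 to 64490251, minus strand), had 627 and 1623 counts, or 31.3 and 75.6 scaled CPM. It was called 2.42-fold higher (2.202 to 2.65).

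Hmox1 (ENSMUSG00000005413; chromosome 8, 75093621 to 75100589, plus strand), which opens the haem ring and frees its iron, went the other way. It drew 2993 counts with EVI1-WT against 1054 with EVI1+18, or 149 and 49.1 scaled CPM. It was 3.04-fold lower in EVI1+18 (2.84 to 3.27), and 4.11% of all tested genes had an equal or lower log2 ratio. The constitutive oxygenase Hmox2 had 851 and 818 counts and a ratio of 0.897 (0.814 to 0.989). Per kilobase, Hmox1 stood 4.45-fold above Hmox2 in EVI1-WT (4.13 to 4.81) and 1.63-fold above it in EVI1+18 (1.49 to 1.79).

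**Figure D2:**
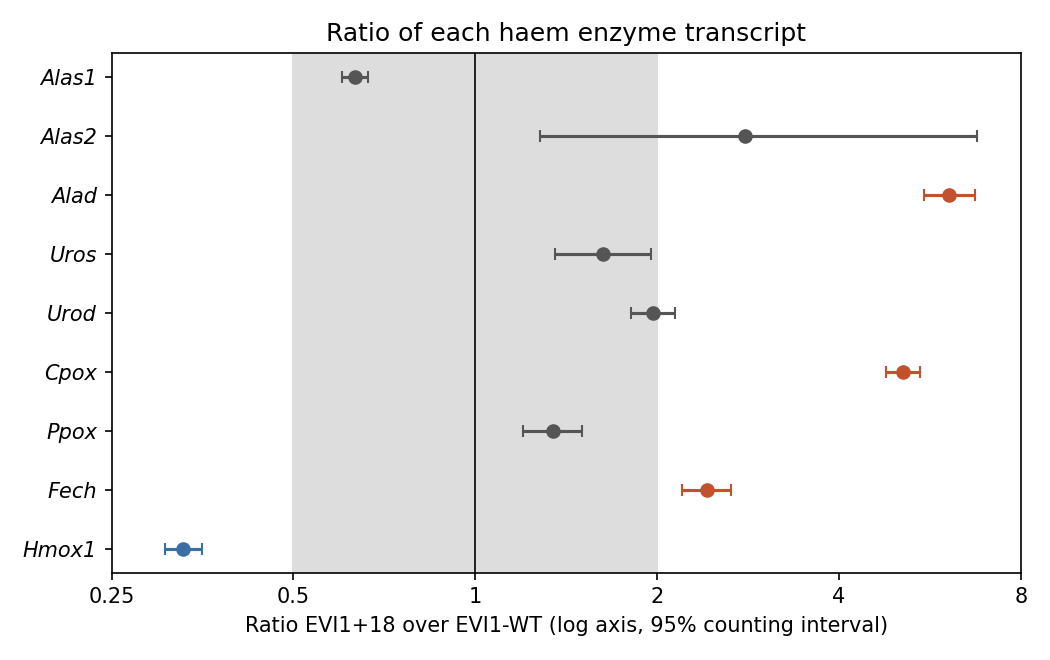
Ratio of EVI1+18 over EVI1-WT for each haem gene, in the order of action in the pathway, on a log axis with 95% exact counting intervals. The grey band spans ratios from 0.5 to 2, orange marks genes called higher and blue the gene called lower. Alad, Cpox and Fech lie wholly above the band, and Hmox1 lies wholly below it.

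Levels can be compared between genes only per length, here as scaled CPM per kilobase of annotated exon. In EVI1-WT, Hmox1 had the highest level of the 9, at 85.3, followed by Alas1 at 33.2, Urod at 15.9 and Alad at 12.5. Cpox stood at 8.06, Ppox at 5.73, Uros at 2.65, Fech at 2.26 and Alas2 at 0.187. Uros and Fech did not differ beyond their counting intervals, and every other pair of neighbours did. Hmox1 and Alas1 thus stood above the other 7 genes in that culture.

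In EVI1+18 the order was another. Alad led at 76.2 per kilobase, followed by Cpox at 41.1, Urod at 31.4, Hmox1 at 28.1 and Alas1 at 20.96. Ppox stood at 7.69, Fech at 5.47, Uros at 4.31 and Alas2 at 0.524, and all neighbours differed beyond their counting intervals. Alad went from 0.377 times the Alas1 level per kilobase (0.342 to 0.415) to 3.63 times (3.45 to 3.83). Cpox went from 0.243 times (0.227 to 0.260) to 1.96 times (1.88 to 2.05), and Fech from 0.0682 times (0.0626 to 0.0742) to 0.261 times (0.245 to 0.277).

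The length used moves these levels, since annotated exons include retained introns and late ends that may not be expressed. With the longest annotated transcript, Cpox stood at 88.5 per kilobase in EVI1+18 and led, with Alad second at 80.6, while Hmox1 and Alas1 still led in EVI1-WT. Fech, whose annotated exons sum to 13838 bases, stood at 11.5 in EVI1+18 under that length. Ratios between the cultures do not depend on the length.

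**Figure D3:**
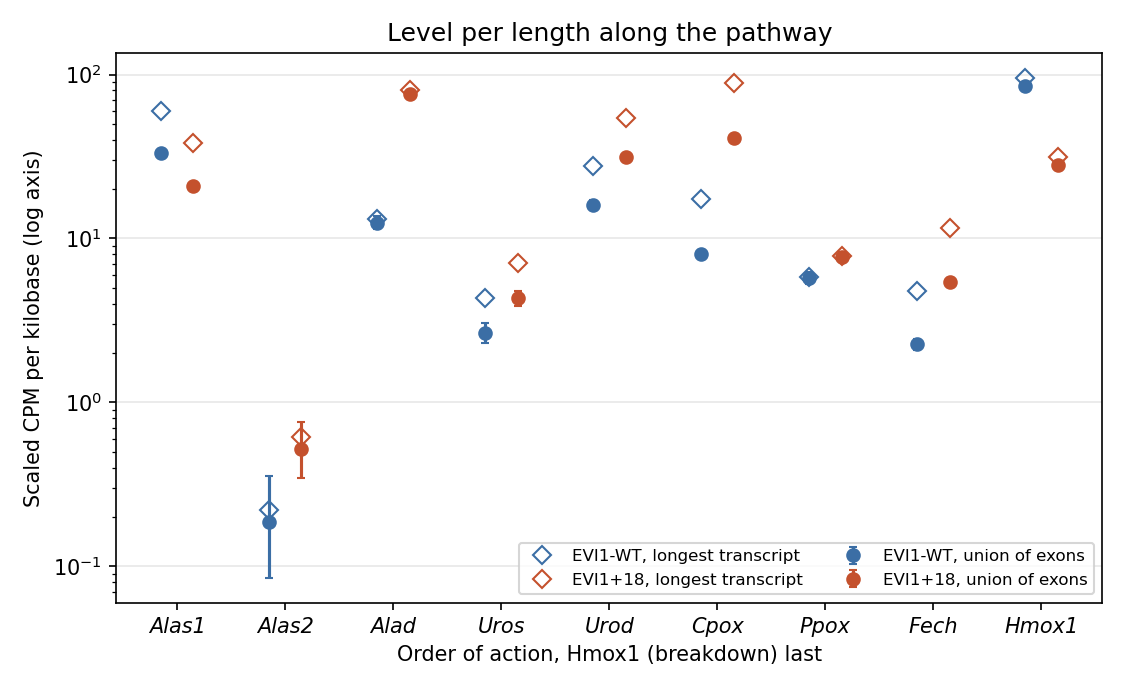
Level per kilobase (log axis) of each haem gene in its order of action, in EVI1-WT (blue) and EVI1+18 (orange). Filled points use the union of annotated exons, with 95% exact Poisson intervals, and open diamonds use the longest annotated transcript. Alas2 lies below every other gene in both cultures, and Alad and Cpox lie above Alas1 in EVI1+18 and below it in EVI1-WT.

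The red-cell markers were mostly higher in EVI1+18 as well. The list of 15 red-cell markers, which was chosen with earlier results of these data known, had 14 tested members, and 13 of these were called higher and 0 lower. The median of their log2 ratios was 4.03. Of the 14, 7 passed the filter only through EVI1+18, where they were higher, so the count favours that direction. All 7 markers that passed in both libraries were called higher, with a median of 3.98. The 15 genes summed to 25.02 scaled CPM with EVI1-WT and 431 with EVI1+18. Icam4 was at 0 counts in both.

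The 4 adult globin genes summed to 1397 scaled CPM with EVI1-WT and 12653 with EVI1+18, a ratio of 9.06 (8.95 to 9.17). The 6 listed enzymes after ALA synthase summed to 185 and 624, a ratio of 3.37 (3.25 to 3.50). All 7 tested globin genes were called higher, the embryonic Hbb-y at 30.07-fold (27.3 to 33.2), Hba-x at 37.02-fold (16.8 to 102) and the adult Hba-a2 at 12.5-fold (12.1 to 12.9). Hba-a1 and Hba-a2 are near-identical, so the split of reads between them is uncertain. Hbb-bh1 had 1 and 66 counts, a ratio of 61.6 (10.7 to 2470). Hba-x and Hbb-bh1 passed the filter only through EVI1+18, and the 5 globin genes that passed in both libraries were all called higher.

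Alas2 differed less between the cultures than most of these genes. The whole interval of its ratio lay below that of 10 of the 14 red-cell markers and of 6 of the 7 globin genes, and overlapped the other 4 markers and the other globin gene. Alad and Cpox, with far narrower intervals, each lay below 10 of the 14 markers, overlapped 3 (Rhd, Slc4a1 and Sptb) and lay above 1 (Trim58). The intervals of Uros, Urod, Ppox and Fech lay below 13 of the 14 and overlapped that of Rhd. Whether a larger share of red-cell precursors accounts for the higher enzyme levels was not tested.

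**Figure D4:**
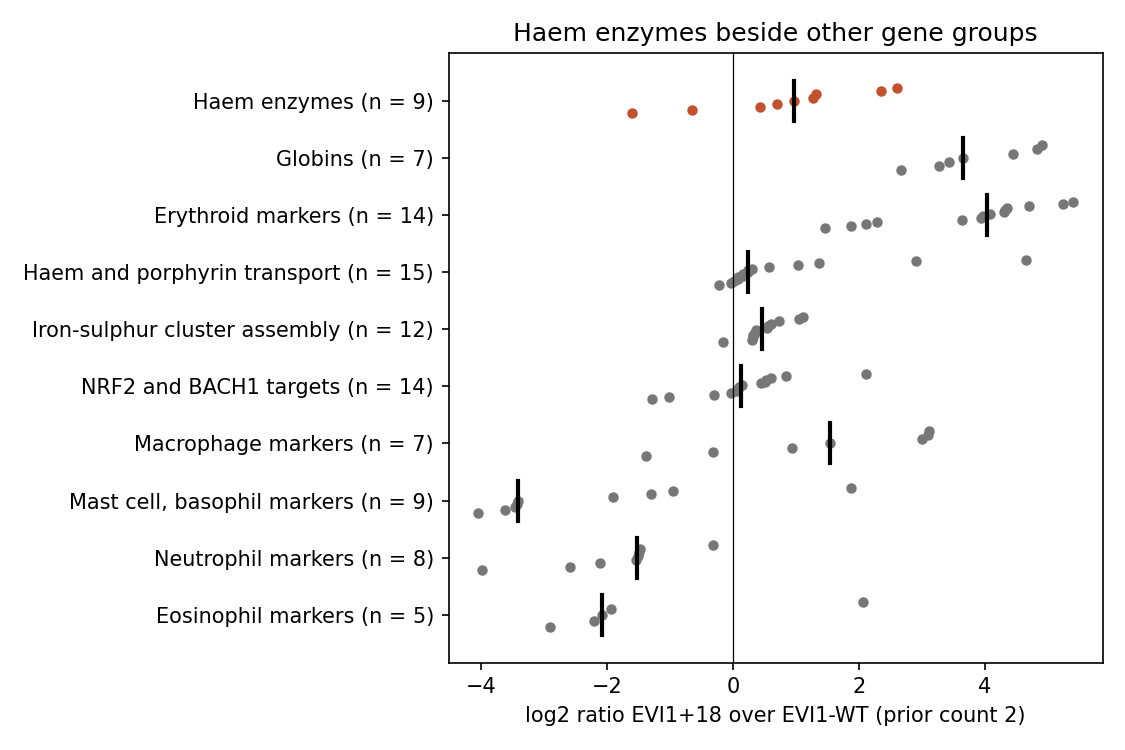
Log2 ratio of EVI1+18 over EVI1-WT (prior count of 2) for the tested members of each gene group, 1 point per gene, with a black bar at the group's median. The haem enzymes (orange) span -1.603 to 2.60, to the left of most globins and red-cell markers, whose medians are 3.64 and 4.03.

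Other genes around the haem pathway were mostly not called, as was true of all tested genes, of which 5.05% were called higher and 5.10% lower. Of 9 genes that supply the substrates of ALA synthase, 2 were called higher and 0 lower, and the median of the log2 ratios was 0.06. Slc6a9, the glycine transporter of red-cell precursors, had 112 and 624 counts and was 5.20-fold higher (4.25 to 6.42). Shmt2, which makes glycine from serine in the mitochondrion, was 2.43-fold higher (2.34 to 2.52). The ketoglutarate dehydrogenase genes Ogdh and Dlst, which make succinyl-CoA, had ratios of 1.04 (1.0005 to 1.09) and 0.891 (0.855 to 0.929).

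Among 15 tested genes of haem and porphyrin transport, 3 were called higher and 0 lower, with a median of 0.23. Of the 14 that passed the filter in both libraries, 2 were called higher and 0 lower, with a median of 0.196. Tspo2, a red-cell relative of the mitochondrial porphyrin-binding protein Tspo, had 3 and 131 counts, a ratio of 40.8 (13.6 to 200.2). Tspo2 passed the filter only through EVI1+18. The porphyrin exporter Abcg2 was 7.70-fold higher (5.94 to 10.1) and the mitochondrial transporter Abcb10 2.57-fold (2.39 to 2.76). Tspo itself and the haem transporter Slc48a1 had ratios of 1.18 (1.12 to 1.25) and 1.01 (0.974 to 1.05).

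Ferrochelatase holds an iron-sulphur cluster. Of 12 genes that assemble such clusters, 0 were called in either direction, where 5.05% of all tested genes were called higher and 5.10% lower. Their median was 0.45. By the looser measure, all but Nfs1 and Iba57 had an interval above 1, where 33.4% of all tested genes did. The interval of Nfs1 lay below 1 and that of Iba57 included 1. Lyrm4 had the highest ratio of the 12, at 2.17 (1.79 to 2.64). The chaperone gene Hspa9 had a ratio of 1.52 (1.48 to 1.56). Glrx5, needed for haem synthesis in red cells, had a ratio of 2.07 (1.95 to 2.203).

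Downstream of haem oxygenase, the biliverdin reductases differed from Hmox1 in direction. Blvrb, abundant in red cells, had 416 and 2382 counts and was 5.34-fold higher in EVI1+18 (4.81 to 5.95), while Blvra had a ratio of 1.28 (1.16 to 1.42). Of 14 other genes known as targets of NRF2 or BACH1, which also control Hmox1, 1 was called higher and 0 lower, with a median of 0.12. The quinone reductase Nqo1 was 4.33-fold higher (3.96 to 4.74). The ferritin genes Fth1 and Ftl1, which store iron, had ratios of 1.36 (1.35 to 1.38) and 1.05 (1.04 to 1.07). Me1 and Slc7a11, named after their values were seen, had the lowest ratios of the 14, at 0.405 and 0.492, and neither was called.

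Hmox1 is also made by macrophages and other myeloid cells. Of 13 macrophage markers, 7 were tested, with 4 called higher, 1 lower and a median of 1.54. The list summed to 569 scaled CPM with EVI1-WT and 513 with EVI1+18. The marker called lower was Adgre1, at 246 and 94.4 scaled CPM. Those called higher were Mrc1, at 54.3 and 158, Fcgr1, at 1.05 and 9.69, Mertk, at 0.399 and 4.19, and Marco, with 1 and 23 counts. Mertk and Marco passed the filter only through EVI1+18. Of the 5 that passed in both libraries, 2 were called higher and 1 lower, with a median of 0.93. The 2 tested markers not called were Cd68, at 241 and 193 scaled CPM, and Csf1r, at 27.0 and 51.5. C1qa and Vsig4 were at 0 in both libraries, and Spic, which marks macrophages that recycle red cells, had 0 and 5 counts. Of 9 tested mast cell and basophil markers 7 were called lower and 1 higher, with summed levels of 4847 and 457. Of 8 neutrophil markers 6 were lower (2893 and 968), and of 5 eosinophil markers 4 were lower and 1 higher (854 and 172). Their part in the Hmox1 difference was not tested. The megakaryocyte list had 4 of 6 tested genes called higher (564 and 1379), and 3 of the 5 that passed the filter in both libraries. Of 6 lymphoid markers 0 passed the filter, and of 3 liver genes only Apoa1 was tested, at 1.45 and 29.2 scaled CPM.

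Of 17 tested genes that sense haem or control haem genes, 3 were called higher and 0 lower, with a median of 0.24. One was the red-cell factor Klf1, at 8.64 and 61.4 scaled CPM and 7.11-fold higher (6.06 to 8.38). The others were Gata1 at 2.54-fold (2.38 to 2.71) and Tal1 at 2.29-fold (2.18 to 2.41), whose levels are not particular to red cells. Nfe2 and the mitochondrial protease Lonp1, which degrades ALAS1, were not called, with ratios of 1.31 (1.26 to 1.35) and 1.63 (1.56 to 1.71). Bach1, the haem-sensing repressor of Hmox1, stood at 40.2 and 55.2 scaled CPM, a ratio of 1.37 (1.25 to 1.503). Nfe2l2, which encodes NRF2, stood at 109 and 136, a ratio of 1.24 (1.17 to 1.31). Neither was called, and both were named after their values were seen.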

How the data were processed

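RNA sequencing was done on 2 cultures, 1 per vector, so no replicate shows how far cultures of 1 kind differ. The authors deposited raw read counts, 1 value per Ensembl gene ID and library. HISAT2 2.2.1, SAMtools, featureCounts, Subread and edgeR with GRCm38 are named in the submitters' processing notes, without order or settings. No source used here gives the annotation release or the strand setting. Of 55487 gene IDs, 55141 matched GENCODE release M21 on GRCm38, the source of symbols, coordinates and lengths.

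Libraries were scaled with TMM in edgeR 4.0.16 (R 4.3.3). Ratios were given 95% exact Clopper-Pearson intervals (scipy 1.17.1), which cover counting error only, as reads are not independent molecules. Log2 ratios used a prior count of 2. No quasi-likelihood test was possible with 1 library per group. The call rule was tested on simulated data that held counting error only, so the test does not cover differences between cultures of 1 kind. The 9 genes, the gene lists and the rules were chosen with earlier results of these data known. Of each pathway list, up to 4 called genes per direction with the largest conservative fold and the 2 most abundant genes not called were taken for naming, and not all of them are given. Icam4 and the other markers named were picked after their values were seen. Some genes of the lists are not reported here. The listed symbol Ahsp had no match and was not analysed here. Alternatives were other scalings (among them DESeq2 1.42.0 size factors), filters, prior counts, fold thresholds and lengths.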

Additional observations from a re-analysis of the deposited data

How the results depend on the processing

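The direction and the call of each of the 9 haem genes were the same under 6 alternatives (54 values in all: DESeq2 size factors, total counts with and without globin genes, upper quartile scaling, and prior counts of 0.5 and 5). The prior count does not enter the call and only shrinks the log2 ratio. The prior counts of 0.5 and 5 thus could not have changed a call or a direction, and only the scalings could. Total counts without the globin genes moved the median of all tested genes by 0.08 on the log2 scale, the widest shift among the scalings. With an interval past 1.5-fold, 4 of the 9 genes were called higher and 2 lower, and past 4-fold 2 were called higher and 0 lower. The shares of all tested genes called at 1.5-fold and 4-fold were not computed, so how unusual these counts are cannot be told. Over all genes, a bare ratio past 2-fold called 1037 higher and 1105 lower, against 666 and 672, and a filter at 5 scaled CPM left 431 higher. With total counts, the median log2 ratio was 0.18 for NRF2 and BACH1 targets and 0.21 for haem enzymes of myeloid cells. With the filter at 5 scaled CPM it was 0.93 for macrophage and 3.41 for megakaryocyte markers. With the longest transcript, the Alas2 share in EVI1+18 was 1.596%. Under total counts Glrx5 came to be called (log2 ratio 1.11) and haptoglobin, Hp, was no longer called (-1.13). No paired analysis was possible because each group has 1 library. Alas2, with 9 and 27 counts, is the one of the 9 haem genes whose ratio depth limits most.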

Other observations

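Among 8 tested haem enzymes of myeloid cells, 2 were called higher in EVI1+18 and 2 lower, and the median of the log2 ratios was 0.14. Eosinophil peroxidase, Epx, stood at 442 scaled CPM with EVI1-WT and 59.05 with EVI1+18, a ratio of 0.134 (0.126 to 0.142), and the cyclooxygenase gene Ptgs2 was at 61.7 and 17.1. Cybb, the haem-binding subunit of the phagocyte oxidase, was 6.79-fold higher (5.63 to 8.25) and Ptgs1 3.62-fold (3.36 to 3.90). Myeloperoxidase, Mpo, a haem peroxidase of the granulocyte line, had a ratio of 1.09 (1.06 to 1.11), and Cyba had 0.870 (0.842 to 0.899).

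Of 9 genes for mitochondrial haem proteins, the complexes that hold them and their assembly, 1 was called lower and 8 were not called. Over all tested genes, 5.05% were called higher and 5.10% lower. The median of the 9 was 0.06. Cycs and Uqcrc1 had ratios of 0.865 (0.825 to 0.906) and 1.13 (1.08 to 1.18). The gene called lower was the sulphite oxidase gene Suox, at 0.366 (0.306 to 0.435). Of 7 genes that bind or recycle haemoglobin and haem, 4 were tested. Lrp1 and Slc11a1 were called higher, at 2.95-fold (2.565 to 3.39) and 3.21-fold (2.56 to 4.05), and haptoglobin, Hp, lower, at 70.5 and 30.7 scaled CPM. Slc40a1, the iron exporter, had a ratio of 0.778 (0.595 to 1.02). The haemoglobin receptor Cd163 had 0 and 14 counts.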
